A study of Homo sapiens with 6 samples.

Results

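The genes of purine and pyrimidine nucleotide synthesis were examined in 67R cells, an EGFR-mutant lung adenocarcinoma line, after knockdown of BCAT1. BCAT1 is the cytosolic enzyme of the first step in the breakdown of branched-chain amino acids, a step that is reversible. The 34 genes were taken by symbol from the 60664 genes of the table and grouped by the role of their enzymes: 11 of purine synthesis, 8 of pyrimidine synthesis, 8 of deoxynucleotide supply and 7 of salvage. Each symbol was found once. Genes whose TPM averaged less than 1 over the 6 libraries were left out, which kept 14286 genes for testing, all 34 among them.

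67R cells were derived from NCI-H1975 by exposure to rising doses of ASK120067, a third-generation EGFR inhibitor, so every library carries that resistant background. Both groups were transfected with siRNA by lipid reagent: siNC, a negative control siRNA, with 3 libraries, and siBCAT1, siRNA against BCAT1, with 3 libraries. The study's methods list 2 siRNAs against BCAT1 and use the name siBCAT1 for the one also called siBCAT1-2. No library is labelled with another siRNA against BCAT1 or with BCAT1 restored. Effects of the siRNA other than loss of BCAT1 were therefore not tested. The labels do not say how long after transfection RNA was taken or whether the libraries of a group came from separate cultures. The p-values therefore measure the spread between these libraries, which may be technical. All values come from a single resistant line, with no parental NCI-H1975 library beside them.

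Nucleotides are built either from small precursors (de novo synthesis) or from free bases and nucleosides (salvage). Purine synthesis builds its ring on phosphoribosyl pyrophosphate (PRPP) and ends in IMP, from which AMP and GMP are made. Pyrimidine synthesis builds the ring first and then joins it to PRPP to give UMP, the source of UTP and CTP. Ribonucleotide reductase turns ribonucleotides into the deoxynucleotides used for DNA. Glutamine, aspartate and glycine supply ring nitrogen. BCAT1 passes the nitrogen of branched-chain amino acids to α-ketoglutarate to give glutamate, and the reaction also runs in reverse. The paper traced labelled leucine and its keto acid in the same resistant line, with BCAT1 lowered by shRNA. The paper proposes that BCAT1 there might speed the making of branched-chain amino acids more than their breakdown. It also reports less α-ketoglutarate after BCAT1 knockdown. Proliferating tumour cells are known for high expression of the genes of nucleotide synthesis.

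BCAT1 (ENSG00000060982, GRCh38 chr12:24810022-24949459, minus strand) was at 42.7, 42.2 and 29.8 TPM in the siNC libraries and at 8.78, 7.10 and 8.0 TPM in the siBCAT1 libraries. The groups lay far apart, and BCAT1 fell by 2.12 on the log2(TPM + 1) scale (SE 0.154, n = 3 and 3, limma adjusted p = 0.000272). TPM corrects the abundance of a transcript for gene length and library size. In what follows a gene is called changed at an adjusted p under 0.05 from limma with Benjamini-Hochberg adjustment over all tested genes. Fold changes are siBCAT1 minus siNC on the log2(TPM + 1) scale, which understates the change of low genes. The libraries had 23152 to 25043 genes above 0. Of the epithelial markers, KRT8 (829 to 1347 TPM) and KRT18 (342 to 518 TPM) were high, whereas EPCAM was at 0.91 to 2.61 TPM. The lung markers NKX2-1, NAPSA, SFTPB and SFTPC were all under 1 TPM, so the lung origin rests on the label. The epithelial list summed to 1702 to 1990 TPM in siNC and 1231 to 1436 TPM in siBCAT1 libraries, and 4 of its 6 genes fell. Of the fibroblast list, COL1A2 was at 178 to 249 TPM and made up most of the sum, COL1A1 fell, and DCN and LUM were listed at 0 in all libraries. The fibroblast list summed to 248 to 267 TPM in siNC and 186 to 242 TPM in siBCAT1 libraries. The part of these shifts in the results below was not tested.

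After BCAT1 knockdown, 4 of the 34 genes rose (RRM1, RRM2, CAD and APRT), 2 fell (UPP1 and NME2) and 28 did not pass the test. Those 6 make 17.6% of the members, beside 27.1% of all tested genes called. The share of all tested genes called higher was 16.7%, and the share called lower was 10.4%. Of all called genes 61.6% were higher, a share of 52.1% under median-ratio scaling and 52.3% under quantile normalization. The order of 17.6% and 27.1% depended on a library, as given below. The log2 fold change was above 0 for 26 members and below 0 for 8, and their median was 0.13 beside 0.04 over all tested genes, of which 54.4% were above 0. With another scaling the count above 0 and the median of the members were smaller, at 23 and 0.08 under median-ratio scaling and 21 and 0.04 under quantile normalization. Without siNC replicate 2 the median of the members was 0.20. The median size of the change, either way, was 0.166 for the members and 0.243 for all tested genes.

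The groups did not overlap for 16 members, 12 higher and 4 lower, and overlapped for 18. Over all tested genes, the groups did not overlap for 44.1%, with 26.1% higher and 18.0% lower. A change of at least 0.5 in size was found for 3 members, RRM1, RRM2 and UPP1, and for 21.6% of all tested genes. Of the siNC libraries, replicate 2 held the highest value for 26 of the 34 members, whereas it was the highest for 34.4% of all tested genes. Without that library 11 members were called, with PAICS, PNP, NME1, TYMS and IMPDH2 added to the 6. That is 32.4% of the members beside 25.9% of all tested genes, the reverse of the order with all libraries. Without the filter on low values, 8.82% of the members and 8.06% of all tested genes were called, and in the other 12 alternatives the share of the members was the lower. Without siNC replicate 1, or without siBCAT1 replicate 1, only RRM1, APRT and UPP1 were called. Without siNC replicate 3, or without siBCAT1 replicate 3, RRM2 and CAD lost their calls, and without siBCAT1 replicate 2 NME2 and CAD did while GART gained one.

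**Figure D1:**
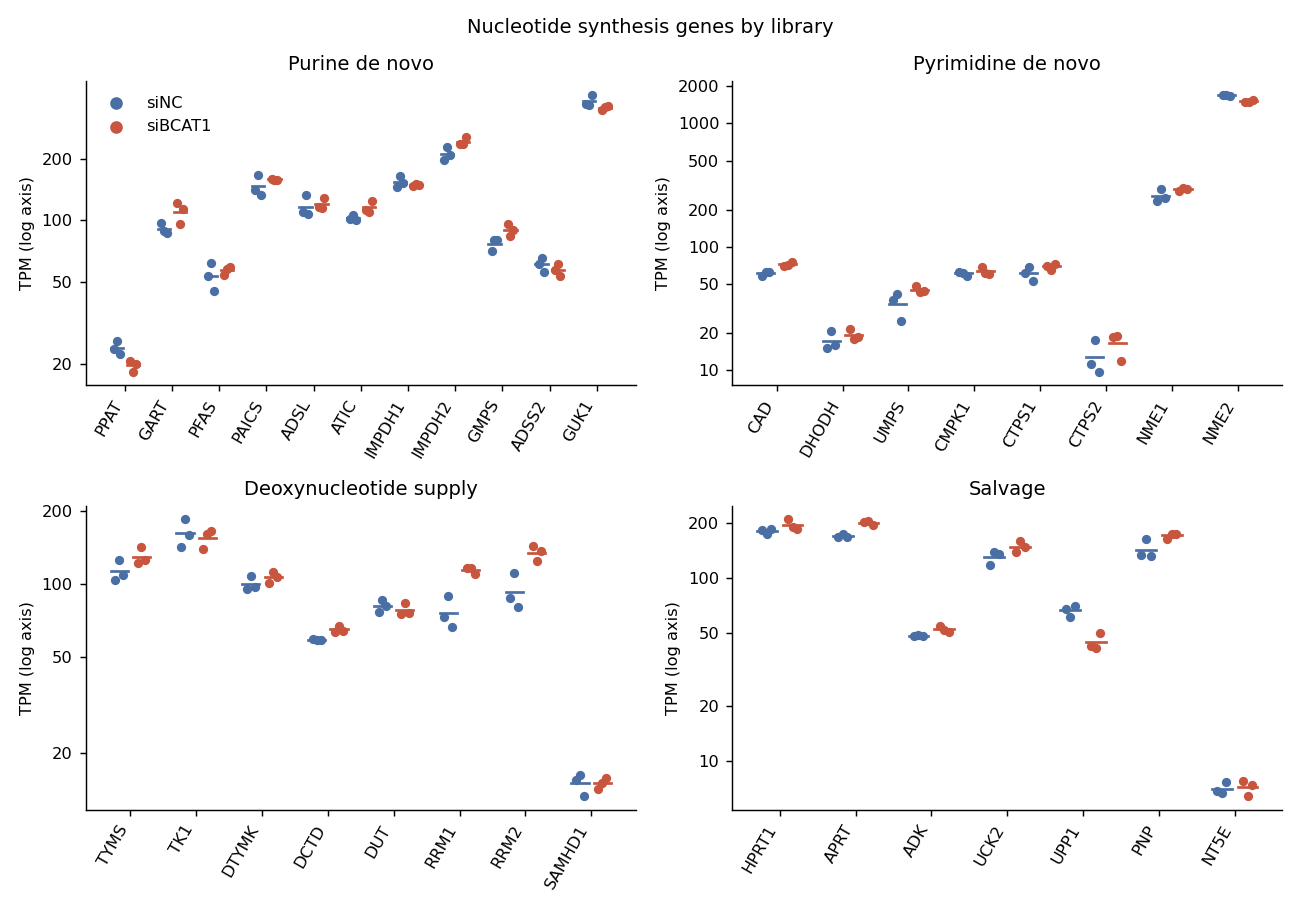
TPM on a log axis for the 34 genes by role, with points for the 3 siNC (blue) and 3 siBCAT1 (red) libraries and a line at each group mean. RRM1 and RRM2 sit higher and UPP1 sits lower in every siBCAT1 library, while NME2 is the most abundant member in all 6 libraries.

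The upstream sequence is shown for the gene that rose most, the gene that fell most, and the interval between PPAT and PAICS, neighbours whose ratio is described further on. The stretches come from the RefSeq promoter table (GRCh38.p14), are trimmed to bases outside every GENCODE 29 exon and are written on the plus strand. Capitals mark motif matches on either strand. The CCAAT box was searched as its name spells it. A GC box was searched as GGGCGG and an E-box as CACGTG. For E2F the letters were TTTGGCGC and, as another form, TTTCGCGC. An AP-1 site was searched as TGAGTCA, and no matches overlap in these stretches. The RRM1 stretch is chr11:4094435-4094684, the UPP1 stretch is chr7:48088454-48088627 and the interval is chr4:56435616-56435740.
RRM1: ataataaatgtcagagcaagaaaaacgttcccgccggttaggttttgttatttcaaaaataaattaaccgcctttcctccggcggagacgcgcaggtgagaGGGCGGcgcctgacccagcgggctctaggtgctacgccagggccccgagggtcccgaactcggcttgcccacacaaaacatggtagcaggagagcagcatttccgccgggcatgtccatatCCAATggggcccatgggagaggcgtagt
UPP1: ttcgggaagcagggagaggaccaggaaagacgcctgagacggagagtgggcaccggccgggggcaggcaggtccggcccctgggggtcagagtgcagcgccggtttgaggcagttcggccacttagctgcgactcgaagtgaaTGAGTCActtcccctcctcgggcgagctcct
PPAT-PAICS: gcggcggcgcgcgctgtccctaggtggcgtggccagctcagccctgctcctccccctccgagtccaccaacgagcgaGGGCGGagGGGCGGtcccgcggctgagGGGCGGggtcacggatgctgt

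The RRM1 stretch held 1 CCAAT and 1 GGGCGG match, the UPP1 stretch held 1 TGAGTCA match, and the PPAT and PAICS interval held 3 GGGCGG matches. The TGAGTCA motif was added after the UPP1 sequence was seen. PPAT and PAICS are transcribed away from each other, with start sites 137 bases apart. Promoters were matched for 32 of the 34 members, and each window of 250 bases before a start was searched. GGGCGG was found for 27 members and for 46.2% of the 27305 genes with a window in the promoter table, which are all the genes meant by the shares that follow. CCAAT was found for 12 of the 32 members and for 37.0% of all genes, which is about the same share, and of the members that rose RRM1, RRM2 and CAD held it and APRT did not. CACGTG was found for ATIC, DHODH and PPAT and for 7.73% of all genes. The E2F type motif, in the exact forms given above, was found for DUT and GART and for 1.2% of all genes. Other forms of the E2F motif were not searched, so members not named here may hold one. TGAGTCA was found for NME1 and UPP1 and for 5.19% of all genes. These matches describe letters in a window and are not binding sites.

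Deoxynucleotide supply held the largest rises. RRM1 (ENSG00000167325, chr11:4094707-4138876, plus strand) encodes the large, catalytic subunit of ribonucleotide reductase. RRM1 was at 72.9, 89.5 and 66.4 TPM in siNC and at 117, 116 and 110 TPM in siBCAT1 libraries. Every siBCAT1 library lay above every siNC library, and the means were 76.3 ± 11.9 and 114 ± 3.47 TPM (SD, n = 3 each). RRM1 rose by 0.59 (SE 0.108, limma adjusted p = 0.00779), a TPM ratio of 1.5. RRM1 remained called under all 14 alternatives that set no minimum size of change, with a log2 fold change of 0.50 to 0.71. The counts of alternatives given for other genes refer to the same 14, and a minimum of 1 would end the call of every member.

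RRM2 (ENSG00000171848, chr2:10120698-10131419, plus strand) encodes the small subunit that carries the tyrosyl radical and is made mainly in S phase. RRM2 was at 87.8, 111 and 80.5 TPM in siNC and at 144, 124 and 137 TPM in siBCAT1 libraries. The groups did not overlap, although siNC replicate 2 came near the lowest siBCAT1 library. RRM2 rose by 0.54 (SE 0.122, limma adjusted p = 0.0171), from a mean of 93.1 ± 16.0 to 135 ± 10.1 TPM (SD, n = 3 each). The RRM2 call was lost in 5 of the 14 alternatives, with an adjusted p of up to 0.0775 from limma. RRM2 transcripts share 19.0% of their 75-base words with other annotated genes, AC007240.1, RRM2P3 and RRM2P2. Of these, RRM2P2 was listed at 0 and RRM2P3 at 0 to 0.21 TPM. No level was matched for AC007240.1, which overlaps RRM2 on the same strand, so the RRM2 level is uncertain to that extent.

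The remaining genes of deoxynucleotide supply did not pass the test. DCTD, which deaminates dCMP to dUMP, was at 59.5, 58.5 and 58.7 TPM in siNC and at 63.6, 67.3 and 64.2 TPM in siBCAT1 libraries. Its groups did not overlap, but the log2 fold change was 0.14 and the limma adjusted p was 0.117. TYMS, thymidylate synthase, had a log2 fold change of 0.20 (95% confidence interval -0.01 to 0.42, limma adjusted p = 0.149), and its siNC libraries of 104, 126 and 109 TPM overlapped the siBCAT1 libraries of 122, 142 and 125 TPM. TYMS overlaps ENOSF1 on the other strand, and whether reads were assigned by strand is not given in the sources used here. TK1, the cytosolic thymidine kinase, had a value of -0.06, DTYMK, which phosphorylates dTMP, 0.09, and DUT, the dUTPase, -0.06. SAMHD1, which breaks down deoxynucleotide triphosphates, was at 13.3 to 16.2 TPM in siNC and 14.2 to 15.8 TPM in siBCAT1 libraries, with a log2 fold change of 0.00. For SAMHD1 the 95% interval was -0.23 to 0.24.

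Genes of DNA synthesis and regulators were read beside the reductase subunits, against the 16.7% of all tested genes called higher and 10.4% called lower. Of 15 genes of replication and the G1/S step, 10 rose, 1 fell (CCNE1) and 4 did not pass the test, and their log2 fold changes ran from -0.97 to 0.77 around a median of 0.38. Their summed level was 954 to 1156 TPM in siNC and 1314 to 1383 TPM in siBCAT1 libraries. E2F1, an activator of S-phase genes, was at 18.6, 27.6 and 21.9 TPM in siNC and at 42.6, 49.8 and 44.6 TPM in siBCAT1 libraries, and rose by 0.99 (limma adjusted p = 0.00292). Of 9 mitosis genes, 2 rose and 7 did not pass, with a median of -0.03. The part of these changes in the rise of RRM1 and RRM2 was not tested.

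MYC, a transcription factor known to act on nucleotide synthesis genes, was at 514, 516 and 570 TPM in siNC and at 689, 637 and 839 TPM in siBCAT1 libraries. MYC rose by 0.43 (limma adjusted p = 0.0209). ATF4, which drives amino acid response genes, was at 392, 347 and 379 TPM in siNC and at 454, 404 and 481 TPM in siBCAT1 libraries, and rose by 0.26 (limma adjusted p = 0.0451). Of the 7 regulators tested, those 2 and E2F1 rose and CDKN1A, a cyclin-dependent kinase inhibitor named after its values were seen, fell by 1.89 (limma adjusted p = 0.000662). The relation of these regulators to the members was not tested.

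**Figure D2:**
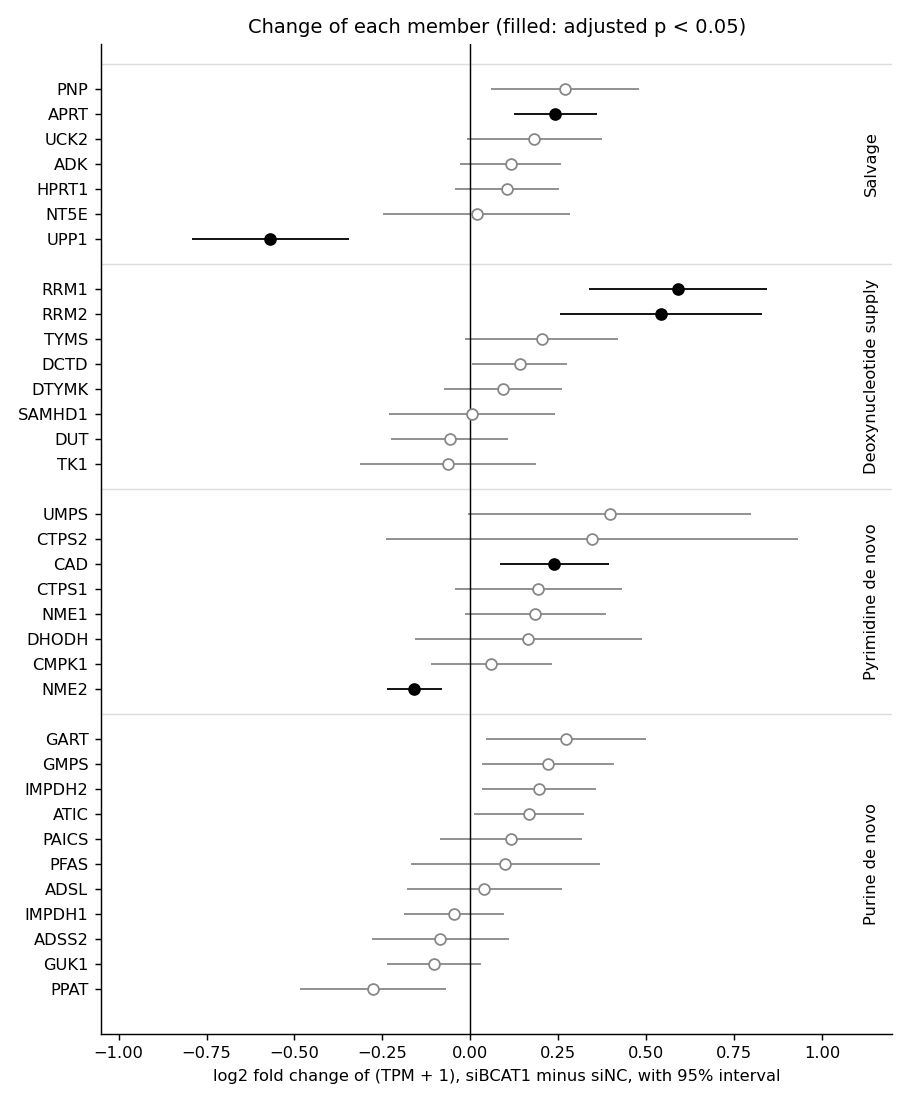
Log2 fold change (siBCAT1 minus siNC, log2(TPM + 1) scale) of each of the 34 genes with its 95% confidence interval from limma, ordered by role, with called genes marked. The values run from -0.57 for UPP1 to 0.59 for RRM1, and most intervals include 0.

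Pyrimidine synthesis held 1 rise and 1 fall. CAD (ENSG00000084774, chr2:27217390-27243943, plus strand) encodes the protein that carries the opening steps of the pathway, from glutamine and aspartate to dihydroorotate. CAD was at 57.9, 62.4 and 62.1 TPM in siNC and at 69.4, 70.6 and 75.8 TPM in siBCAT1 libraries. The groups did not overlap, and CAD rose by 0.24 (SE 0.066, limma adjusted p = 0.0350), from a mean of 60.8 ± 2.50 to 71.9 ± 3.40 TPM (SD, n = 3 each). The CAD call was lost in 8 of the 14 alternatives, with an adjusted p of up to 0.161 from limma.

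NME2 (ENSG00000243678, chr17:51165435-51171747, plus strand) encodes a nucleoside diphosphate kinase, which makes nucleoside triphosphates. NME2 was at 1697, 1703 and 1659 TPM in siNC and at 1500, 1497 and 1533 TPM in siBCAT1 libraries. The groups lay apart with little spread, at means of 1686 ± 24.0 and 1510 ± 20.2 TPM (SD, n = 3 each), and NME2 fell by 0.16 (SE 0.034, limma adjusted p = 0.0134). NME2 was the most abundant member, at the 99.3rd percentile of all tested genes by mean TPM. Its call was lost in 5 of the 14 alternatives, with an adjusted p of up to 0.0974 from limma. NME2 shares 22.5% of its 75-base words, and its neighbour NME1 16.5%, with the readthrough transcript NME1-NME2, which was listed at 7.57 to 10.8 TPM, so the split of reads between them is uncertain.

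UMPS, which turns orotate into UMP, was at 36.9, 41.6 and 25.2 TPM in siNC and at 48.3, 43.1 and 43.4 TPM in siBCAT1 libraries. The siBCAT1 libraries all lay higher, but siNC replicate 3 stood far below the other two, and the log2 fold change was 0.40 (95% interval -0.01 to 0.80, limma adjusted p = 0.131). DHODH, the mitochondrial enzyme that oxidises dihydroorotate, had a value of 0.16, and CMPK1, the UMP and CMP kinase, one of 0.06. The CTP synthases CTPS1 and CTPS2 had values of 0.19 and 0.35, with limma adjusted p of 0.200 and 0.347. CTPS2 was at 9.73 to 17.6 TPM in siNC and 11.8 to 19.0 TPM in siBCAT1 libraries, and its interval of -0.24 to 0.93 was the widest of the pyrimidine genes. NME1 had a value of 0.18 (limma adjusted p = 0.154), with siNC replicate 2 (293 TPM) inside the siBCAT1 range of 282 to 302 TPM.

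Salvage held the largest fall among the members. UPP1 (ENSG00000183696, chr7:48088628-48108733, plus strand) encodes uridine phosphorylase, which splits uridine into uracil and ribose-1-phosphate. UPP1 was at 67.8, 61.3 and 70.7 TPM in siNC and at 42.7, 41.3 and 50.0 TPM in siBCAT1 libraries. Every siBCAT1 library lay below every siNC library, and the means were 66.6 ± 4.80 and 44.7 ± 4.71 TPM (SD, n = 3 each). UPP1 fell by 0.57 (SE 0.095, limma adjusted p = 0.00546), a TPM ratio of 0.671. UPP1 remained called under all 14 alternatives, at -0.66 to -0.52.

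APRT (ENSG00000198931, chr16:88809339-88811944, minus strand) encodes adenine phosphoribosyltransferase, which joins adenine to PRPP to make AMP. APRT was at 168, 174 and 167 TPM in siNC and at 203, 205 and 194 TPM in siBCAT1 libraries. The groups did not overlap, and APRT rose by 0.24 (SE 0.050, limma adjusted p = 0.0125), from a mean of 170 ± 4.15 to 201 ± 5.70 TPM (SD, n = 3 each). APRT lost its call only under quantile normalization (adjusted p = 0.106, limma). HPRT1, which salvages hypoxanthine and guanine, was at 182, 175 and 185 TPM in siNC and 209, 189 and 185 TPM in siBCAT1 libraries. The HPRT1 groups overlapped, with a value of 0.10 and a limma adjusted p of 0.267.

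PNP, purine nucleoside phosphorylase, was at 133, 162 and 131 TPM in siNC and at 164, 175 and 174 TPM in siBCAT1 libraries. The PNP groups were separated by a small gap and its log2 fold change was 0.27, with a limma adjusted p of 0.0631. ADK, adenosine kinase, and UCK2, uridine-cytidine kinase, had values of 0.11 and 0.18, with groups that did not overlap and limma adjusted p of 0.209 and 0.145. NT5E, the surface 5′-nucleotidase CD73, was the least abundant member, at 6.71 to 7.67 TPM in siNC and 6.43 to 7.74 TPM in siBCAT1 libraries.

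None of the 11 genes of purine synthesis passed the test (limma) in the main fit, and 5 had an unadjusted p under 0.05: PPAT, GART, ATIC, IMPDH2 and GMPS. Of all tested genes, 39.7% had an unadjusted p under 0.05. The values of the 11 purine genes ran from -0.28 to 0.27 with a median of 0.10. PPAT (chr4:56393362-56435615, minus strand) encodes the amidotransferase of the committed step, which takes nitrogen from glutamine. PPAT was at 23.7, 25.8 and 22.4 TPM in siNC and at 20.6, 18.3 and 19.9 TPM in siBCAT1 libraries. The groups did not overlap, and the log2 fold change was -0.28 (95% interval -0.48 to -0.07, limma adjusted p = 0.0566). PPAT passed the threshold in 4 of the 14 alternatives, GART in 3, GMPS in 2, and PAICS and IMPDH2 in 1 each. GMPS passed under GC and length correction, with and without the replicate block.

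GART, which carries several early ring steps, was at 97.1, 88.6 and 87.1 TPM in siNC and 122, 96.0 and 113 TPM in siBCAT1 libraries, with a value of 0.27 and a limma adjusted p of 0.0781. Its groups overlapped, since siBCAT1 replicate 2 lay just below siNC replicate 1. ATIC, which closes the ring to IMP, had a value of 0.17 with groups that did not overlap (limma adjusted p = 0.107). PFAS and PAICS, enzymes of the middle steps, and ADSL, which acts in both the ring and the AMP branch, had values of 0.10, 0.12 and 0.04, all with overlapping groups. ADSL shares 14.8% of its words with AL022238.4, which was at 5.2 to 11.4 TPM, so its level is uncertain.

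In the GMP branch, IMPDH2, the IMP dehydrogenase of dividing cells, was at 197, 229 and 210 TPM in siNC and at 237, 235 and 256 TPM in siBCAT1 libraries. The IMPDH2 groups did not overlap, with a value of 0.20 and a limma adjusted p of 0.0763. IMPDH1, the other IMP dehydrogenase, had a value of -0.05 with overlapping groups. GMPS, which aminates XMP to GMP, was at 70.7, 80.3 and 80.3 TPM in siNC and at 96.4, 84.1 and 89.4 TPM in siBCAT1 libraries, with a value of 0.22 and a limma adjusted p of 0.0832. GUK1, the guanylate kinase, was the most abundant purine gene at 345 to 411 TPM over the 6 libraries, with a value of -0.10. ADSS2, of the AMP branch, had a value of -0.09 (limma adjusted p = 0.485).

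**Figure D3:**
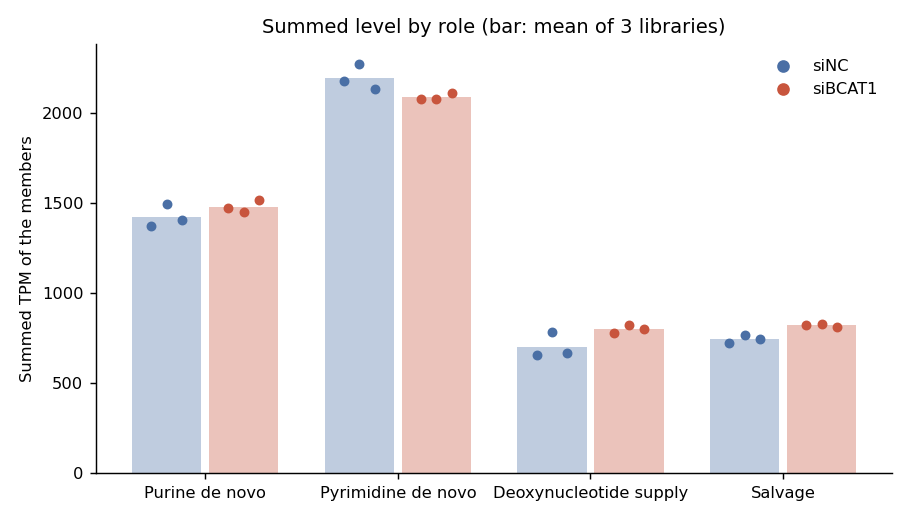
Summed TPM of the members of each role, with a point per library and a bar at the mean of 3 libraries, siNC in blue and siBCAT1 in red. The salvage sum is higher and the pyrimidine sum, most of it NME2, lower in all siBCAT1 libraries. The purine and deoxynucleotide sums overlap between groups.

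Summed over each role, salvage genes were at 723 to 768 TPM in siNC and 808 to 827 TPM in siBCAT1 libraries. The pyrimidine sum was 2130 to 2268 TPM in siNC and 2076 to 2109 TPM in siBCAT1 libraries, most of it NME2. Of the 8 pyrimidine genes, NME2 alone had a log2 fold change below 0, and the other 7 lay above 0, so the lower sum describes NME2. These 2 sums did not overlap between the groups. The deoxynucleotide sum was 700 ± 69.1 TPM in siNC and 799 ± 21.7 TPM in siBCAT1 (SD, n = 3 each), and siNC replicate 2, at 780 TPM, lay inside the siBCAT1 range. The purine sum was 1423 ± 60.8 and 1477 ± 35.2 TPM, with overlap. These sums are descriptions, with no test.

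Ratios within 6 pairs of related enzymes were compared with a two-sided exact permutation test over the 6 libraries, for which 0.1 is the smallest p that 3 against 3 allows. The PPAT to PAICS ratio, for genes that share the interval shown above, was 0.168, 0.155 and 0.168 in siNC and 0.129, 0.115 and 0.126 in siBCAT1 libraries. All siBCAT1 ratios were lower, with a log2 difference of -0.39 (exact p = 0.1, 0.2 after adjustment over the 6 pairs). The IMPDH1 to IMPDH2 ratio was 0.735, 0.718 and 0.723 in siNC and 0.619, 0.640 and 0.580 in siBCAT1 libraries, again without overlap (log2 difference -0.24, exact p = 0.1). The NME1 to NME2 ratio was 0.138, 0.172 and 0.149 in siNC and 0.188, 0.202 and 0.191 in siBCAT1 libraries (log2 difference 0.34, exact p = 0.1).

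For the reductase subunits the ratios of the groups overlapped. The RRM1 to RRM2 ratio was 0.831, 0.806 and 0.825 in siNC and 0.812, 0.936 and 0.804 in siBCAT1 libraries (log2 difference 0.05, exact p = 0.9). RRM2B, the alternative small subunit outside the 34, was at 7.73, 8.47 and 6.31 TPM in siNC and 7.10, 10.3 and 5.72 TPM in siBCAT1 libraries. The RRM2 to RRM2B ratio was 11.4 to 13.1 in siNC and 12.0 to 24.0 in siBCAT1 libraries, with overlap (exact p = 0.3). The CTPS1 to CTPS2 ratio also overlapped, at 3.87 to 5.50 and 3.44 to 6.21 (exact p = 0.8).

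Around the 34 members, a list of 66 other genes of nucleotide metabolism had 47 tested genes, of which 10 rose, 5 fell and 32 did not pass, so that 31.9% were called beside the 27.1% of all tested genes. Their median log2 fold change was 0.02, and 11 changed by at least 0.5 in size, whether or not they passed the test. None of the 4 genes that supply PRPP was called by limma in the main fit, and 2 of them had an unadjusted p under 0.05. PRPS2 and PRPSAP1, named after their values were seen, had log2 fold changes of -0.25 and 0.28 (limma adjusted p = 0.0681 and 0.0700). PRPS2 passed under median-ratio scaling, quantile normalization, the replicate block and GC and length correction (limma adjusted p = 0.023, 0.027, 0.045 and 0.044). PRPSAP1 passed with the replicate block (limma adjusted p = 0.032). Of 7 purine interconversion genes 3 rose and 2 fell, and of 9 nucleotide kinases 2 rose and 2 fell. Of 8 further deoxynucleotide genes 2 rose, of 6 genes of pyrimidine salvage and breakdown 1 rose and 1 fell, of 9 nucleotidases 1 rose, and of 4 transporters 1 rose.

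GMPR2, which turns GMP back to IMP, was at 38.1, 37.9 and 33.2 TPM in siNC and at 71.0, 70.6 and 70.3 TPM in siBCAT1 libraries. GMPR2 was far higher in every siBCAT1 library, and rose by 0.94 (limma adjusted p = 0.000347). NT5C, a nucleotidase that acts on deoxynucleotides, was at 28.1, 25.6 and 30.2 TPM in siNC and at 45.4, 45.6 and 47.4 TPM in siBCAT1 libraries, and rose by 0.71 (limma adjusted p = 0.00125). AK3, a mitochondrial GTP-AMP kinase, was at 6.97 to 7.27 TPM in siNC and 10.8 to 13.1 TPM in siBCAT1 libraries, and rose by 0.67 with no overlap (limma adjusted p = 0.00385).

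ADA, adenosine deaminase, was at 47.7, 33.9 and 42.5 TPM in siNC and at 20.7, 17.8 and 18.7 TPM in siBCAT1 libraries. ADA fell by 1.07 with no overlap (limma adjusted p = 0.00174). CDA, cytidine deaminase, was at 72.5, 72.0 and 79.1 TPM in siNC and at 37.4, 43.6 and 45.7 TPM in siBCAT1 libraries, and fell by 0.81 (limma adjusted p = 0.00119). AMPD3, an AMP deaminase, was less abundant, at 3.90 to 5.71 TPM in siNC and 1.60 to 2.14 TPM in siBCAT1 libraries, and fell by 1.05 (limma adjusted p = 0.00513). AK6, a nuclear adenylate kinase, was at 38.3, 43.0 and 43.3 TPM in siNC and at 22.6, 22.7 and 32.4 TPM in siBCAT1 libraries, and fell by 0.68 (limma adjusted p = 0.0136). The AK6 call was lost without siNC replicate 3, siBCAT1 replicate 1 or siBCAT1 replicate 2 (limma adjusted p = 0.0603, 0.0584 and 0.0586). AK6 overlaps TAF9 on the same strand, so the split of reads between them is uncertain.

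Some called genes changed by less. Their names were picked once the values were known: DPYD, SLC29A1, AMPD2, MTAP and DGUOK rose by 0.26 to 0.44, and AK4 fell by 0.42. Of the 14 alternatives, 9 ended the call of DGUOK, 8 that of MTAP, and 6 each those of AMPD2 and DPYD, with limma adjusted p of up to 0.175, 0.110, 0.0703 and 0.0847. DGUOK lost its call without any 1 of the 6 libraries, and MTAP without any 1 but siNC replicate 2. AMPD2 lost its call without siNC replicate 1 or 2 or siBCAT1 replicate 1 or 3, and DPYD without siNC replicate 1 or 3 or siBCAT1 replicate 2 or 3. The calls of SLC29A1 and AK4 held under all 14.

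**Figure D4:**
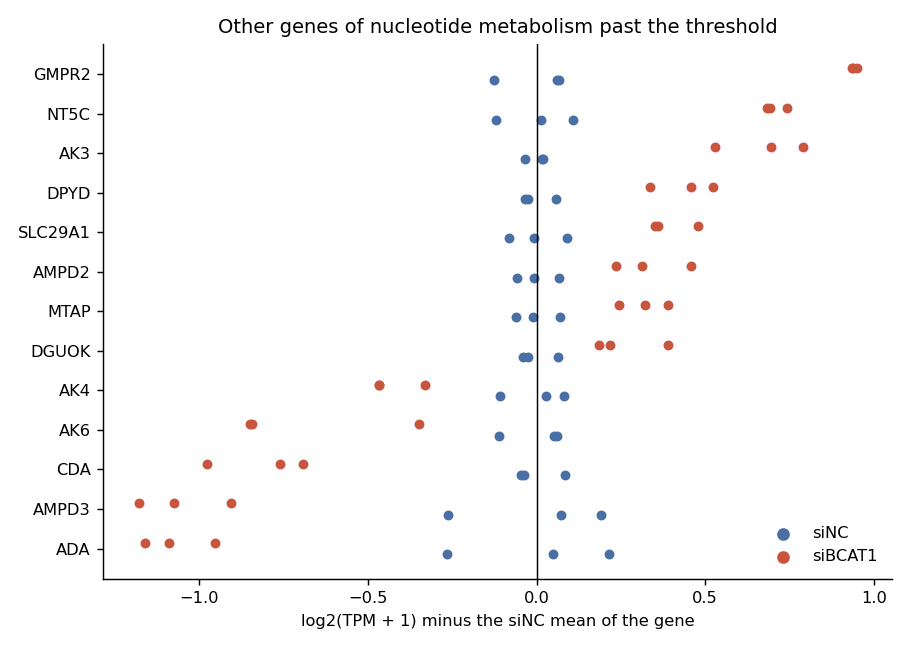
Level of each library on the log2(TPM + 1) scale minus the siNC mean of the gene, for 13 of the 15 other genes of nucleotide metabolism that passed the test, siNC in blue and siBCAT1 in red. In every siBCAT1 library 8 genes, from GMPR2 to DGUOK, lie above and 5, from AK4 to ADA, lie below all siNC libraries.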

How the data were processed

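The 6 libraries of 67R cells, 3 siNC and 3 siBCAT1, were grouped by the titles and genotypes in their labels. The authors prepared stranded mRNA libraries. Per the submitters' processing notes, fastp, HISAT2 and StringTie were used on GRCh38, with versions not given in the sources used here. The deposited table holds a TPM value per gene and library, rounded by the authors to 2 decimals, and a gene length. The unit was read from the values, which sum to about the same total in each library. TPM keeps no depth, so no counting error could be given and the precision rests on the 3 libraries of a group. Columns mapped to no sample numbered 0.

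Values were transformed to log2(TPM + 1). The 14286 genes that averaged 1 TPM or more were tested with limma 3.58.1 (lmFit, eBayes with trend) in R 4.3.3, two-sided, with Benjamini-Hochberg adjustment over all of them and a threshold of 0.05. The test was tested on simulated data first. The design named a count test only for a table of counts. Pairs were compared with an exact permutation test, and their 6 p-values were adjusted together. Motifs, shared words and figures were made with Python 3.11.15, pandas 2.3.3, numpy 2.4.6 and matplotlib 3.10.9, on GENCODE 29 and the RefSeq promoter table, which had no entry for ADSL and IMPDH2. Words of 75 bases were compared between annotated transcripts.

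The members and lists were chosen with earlier results of these data known. The genes named are all members, BCAT1, the other gene of each pair, MYC, E2F1 and ATF4, and the other pathway genes with an adjusted p under 0.05 and a change of 0.5 or more in size. Some genes that were counted in the list of other pathway genes are not reported here by name. The alternatives were no filter, a filter at 5 TPM, a pseudocount of 0.1, median-ratio scaling, quantile normalization, a block on the replicate number, loess adjustment of each library for GC and length (span 0.5), block and adjustment together, a minimum log2 fold change of 1, and each library left out in turn. GC content was available for 99.0% of the tested genes.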

Additional observations from a re-analysis of the deposited data

How the results depend on the processing

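Main counts were 3865 genes called, 2382 higher and 1483 lower, with 4 members higher and 2 lower and 10 and 5 of the other pathway genes. Without the filter on low values, 2567 genes were called, 960 lower, and 2 members higher and 1 lower. Quantile normalization left 2 members higher. A minimum log2 fold change of 1 left 448 genes and ended every member call, since the members ran from -0.57 to 0.59. Leaving out each library in turn gave 2318 to 3706 genes, 1435 to 2276 higher and 796 to 1430 lower, 2 to 9 members higher and 1 to 2 lower, and 5 to 9 other pathway genes higher and 4 to 7 lower. BCAT1 ran from -2.28 to -2.03 over the same omissions. With a library left out, the CTPS1 to CTPS2 difference ran from -0.40 to 0.0038 and the RRM1 to RRM2 difference from -0.023 to 0.085, both with a change of sign without siBCAT1 replicate 2. The cause was not tested. Same-numbered libraries had correlations of 0.0844, 0.102 and 0.124 between their deviations from the group means. Differently numbered libraries had correlations of -0.0814 to -0.0134, so each library correlated best with its own number. The main fit did not pair the libraries, and whether same-numbered libraries share a batch was not tested. With the replicate number as a block, 4568 genes were called, beside 3865 in the main fit. In the block fit 8 members were higher, with PNP, UCK2, TYMS and GART added and the main 6 calls kept. With GC and length correction as well 7 were higher. RRM1 and UPP1 were called under all 14 alternatives other than that minimum. The number of libraries limits the precision, and depth is not held in TPM.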

Other observations

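Of the 66 other genes of nucleotide metabolism, 19 were under the filter on low values. For some of them another gene of the same step was well above it, such as GMPR2 for GMPR, AMPD2 for AMPD1 and UPP1 for UPP2. The concentrative nucleoside transporter SLC28A1 was listed at 0 in all 6 libraries, and SLC28A2 and SLC28A3 were at no more than 0.07 and 0.03 TPM, whereas the equilibrative transporter SLC29A1 was at 72.1 to 81.5 TPM in siNC and 97.8 to 107 TPM in siBCAT1 libraries. XDH, which makes uric acid, was at 0.05 to 0.09 TPM. UPP2, the other uridine phosphorylase, was listed at 0 in all libraries, so UPP1 was the only uridine phosphorylase gene above 0. AMPD1, the muscle AMP deaminase, was also listed at 0. DPYS and UPB1, which follow DPYD in pyrimidine breakdown, were at no more than 0.29 and 0.11 TPM. SLC29A1, XDH and these low genes were named after their values were seen, and the low genes were not tested.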
